A study of Mus musculus with 2 samples.

Results

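Globin and other red cell genes were followed in dissociated primary mouse pituitary cells stored in RNA-Best or in RNAlater. The set held 7 of the 47069 genes in the table: the adult beta-globin genes Hbb-bs and Hbb-bt, the adult alpha-globin genes Hba-a1 and Hba-a2, and the erythroid genes Alas2, Slc4a1 and Bpgm. They were chosen by name, with their ratios between the libraries already known, so those ratios describe the set and support nothing by themselves. Whole pituitaries came from female C57BL/6 mice, 10 to 12 weeks old and not staged for the oestrous cycle, and were digested with collagenase and pancreatin. For the study's primary cells, a sample was described as 500000 to 700000 cells pooled from 5 pituitaries and washed into a medium with serum. For bulk RNA-seq, pituitaries were acutely dissociated in the way described and stored at once in either stabilizer. RNA-Best is a buffer that stabilizes RNA within intact single cells, and RNAlater is an established RNA stabilizer that served as the reference. Each stabilizer had 1 library of poly(A) RNA, so there was no replicate spread, no test was run, and the stabilizer, the pool of cells and the library preparation cannot be told apart.

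Haemoglobin carries oxygen in red cells and is built from equal numbers of alpha and beta globin chains, each holding a haem group. Mammalian red cells lose their nucleus as they mature, but the youngest circulating cells, the reticulocytes, still carry globin mRNA. The pituitary makes no red cells and is richly supplied with blood vessels. In dissociated bulk tissue, fewer cells of a type and less RNA per cell cannot be told apart.

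Gene counts totalled 53915047 for RNA-Best and 44917492 for RNAlater. Levels were scaled by these totals to CPM, meaning counts per library total of 1000000. Ratios are RNA-Best over RNAlater, and log2 ratios had 0.5 CPM added to each level. The intervals are exact 95% intervals for counting error alone. They treat every count as a separate molecule, which copies made by PCR are not, so they can be too narrow. A gene entered the comparison with a mean of 1 CPM or more over both libraries, which left 16504 genes, and their median log2 ratio was -0.18. The tissue label was checked against 7 pituitary hormone genes, which were all above 1 CPM and together, mostly as Prl, reached 307051 CPM in RNA-Best against 239085 in RNAlater. Their log2 ratios ran from 0.04 for Gh to 0.73 for Tshb. By contrast, the 4 globin genes together took 0.318% of all counts in RNA-Best and 0.112% in RNAlater.

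The copies within each globin pair are nearly identical, which decides how far their reads can be separated. The coding sequences of Hbb-bs and Hbb-bt, each 444 bases long, differed at 1 base, and those of Hba-a1 and Hba-a2, each 429 bases long, also differed at 1 base. The stretches of exon 3 that hold these bases are shown, each 51 bases long like the reads described for the study's RNA-seq. They were read 5′ to 3′ on the coding strand of GRCm38, and the base that differs within each pair is in capitals.
Hbb-bs, chr7:103826667-103826717: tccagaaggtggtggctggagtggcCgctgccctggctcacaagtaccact
Hbb-bt, chr7:103812658-103812708: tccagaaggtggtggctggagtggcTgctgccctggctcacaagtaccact
Hba-a1, chr11:32284318-32284368: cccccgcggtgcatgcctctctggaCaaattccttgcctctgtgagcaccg
Hba-a2, chr11:32297135-32297185: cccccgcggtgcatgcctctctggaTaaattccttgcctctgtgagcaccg

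Cutting the longest annotated transcript of each gene into all windows of 51 bases showed how much a read could tell the copies apart. Of the Hbb-bs windows, 65.7% also occurred in Hbb-bt, and 58.2% of the Hbb-bt windows occurred in Hbb-bs. For the alpha pair the shares were 67.3% of the Hba-a1 windows and 86.7% of the Hba-a2 windows. No globin window occurred in a gene outside its own pair. The single-copy values below are therefore uncertain, whereas the sum of a pair does not depend on how reads were split between its copies. All windows of Slc4a1 and Bpgm were unique. Alas2 overlaps Apex2 and Mir3620 on the opposite strand over 15.5% of its exonic bases. The strand setting of the read counting was not given, so it is not known whether reads from that stretch were assigned by strand.

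The control regions of the globin genes carry known binding motifs of the erythroid programme. The 250 bases before the RefSeq start of transcription (GRCm38.p6) are shown for Hbb-bs and Hba-a2, 1 gene of each pair, because the members of a pair moved together. The capitals mark ATATAA as the TATA box, and GATAAG, which GATA factors such as Gata1 bind. They also mark CCAAT, found in many promoters, besides CACCC, which Klf1 and related factors bind. The 4 motifs were searched on both strands and do not overlap each other in these windows.
Hbb-bs, minus strand, chr7:103827929-103828178: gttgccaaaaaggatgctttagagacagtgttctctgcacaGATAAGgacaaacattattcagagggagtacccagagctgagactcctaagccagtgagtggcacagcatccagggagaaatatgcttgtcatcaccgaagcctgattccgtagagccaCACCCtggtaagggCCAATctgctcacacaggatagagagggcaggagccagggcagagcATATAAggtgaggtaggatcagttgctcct
Hba-a2, plus strand, chr11:32296242-32296491: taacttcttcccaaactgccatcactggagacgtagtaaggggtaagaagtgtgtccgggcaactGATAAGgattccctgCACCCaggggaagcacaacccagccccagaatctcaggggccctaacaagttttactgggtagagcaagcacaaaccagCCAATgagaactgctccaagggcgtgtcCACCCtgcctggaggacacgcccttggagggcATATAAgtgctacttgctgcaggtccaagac

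All 4 motifs occurred in the windows of all 4 globin genes, against 0.140% of the 32851 promoters of the same length in the RefSeq table. Singly, ATATAA occurred in 9.10% of them, CCAAT in 33.8%, CACCC in 52.0% and GATAAG in 6.55%. The windows of Hba-a1 and Hba-a2 shared an unbroken run of 247 bases, while the longest run shared by Hbb-bs and Hbb-bt was 14 bases. The window of Alas2 held 1 of the 4 motifs, CACCC, and that of Bpgm held 1, CCAAT. Only the exact string GATAAG was searched, so GATA with other flanking bases was not counted. The Alas2 window holds such a string, AGATAA, on the opposite strand. Slc4a1 was not among the 6 members matched in that table. These matches describe letters in a window, not binding.

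The beta-globin genes had the highest ratios of all genes compared. Hbb-bs (ENSMUSG00000052305.5, chromosome 7, 103826534-103828096, minus strand) encodes an adult beta chain and had 1333 CPM in RNA-Best (71860 counts) against 346 in RNAlater (15546 counts). Its ratio was 3.85 (3.78 to 3.92), and 1 gene compared had a higher log2 ratio. That gene was Hbb-bt (ENSMUSG00000073940.3, chromosome 7, 103812524-103813996, minus strand), the second adult beta-globin copy. Hbb-bt had 895 CPM in RNA-Best (48270 counts) against 220.0 in RNAlater (9881 counts), a ratio of 4.07 (3.98 to 4.16). Summed over the copies, beta-globin reached 2228 CPM in RNA-Best against 566 in RNAlater, a ratio of 3.94 (3.88 to 3.99) and a log2 ratio of 1.98 (1.96 to 2.0).

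The alpha-globin genes were also higher in RNA-Best, by less. Hba-a1 (ENSMUSG00000069919.7, chromosome 11, 32283511-32284465, plus strand), which encodes the adult alpha chain, had 484 CPM in RNA-Best (26077 counts) against 280 in RNAlater (12556 counts), a ratio of 1.73 (1.69 to 1.77). Hba-a2 (ENSMUSG00000069917.7, chromosome 11, 32296489-32297298, plus strand), the second copy, had 472 CPM in RNA-Best (25438 counts) against 274 in RNAlater (12292 counts), a ratio of 1.72 (1.69 to 1.76). The copies thus lay within each other's counting interval. Summed alpha-globin was 955 CPM in RNA-Best against 553 in RNAlater, a ratio of 1.73 (1.70 to 1.75) and a log2 ratio of 0.79 (0.77 to 0.81). Of the genes compared, 159 had a higher log2 ratio than summed alpha-globin.

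The other members are genes of haem supply, the red cell membrane and red cell metabolism. Alas2 (ENSMUSG00000025270.13, chromosome X, 150547375-150570638, plus strand) encodes the erythroid form of aminolevulinate synthase, the first enzyme of haem synthesis. It had 16.8 CPM in RNA-Best (905 counts) against 10.4 in RNAlater (466 counts), a ratio of 1.62 (1.45 to 1.81). Bpgm (ENSMUSG00000038871.5, chromosome 6, 34476207-34505613, plus strand) encodes bisphosphoglycerate mutase, whose product lowers the oxygen affinity of haemoglobin. It had 56.0 CPM in RNA-Best (3020 counts) against 46.2 in RNAlater (2076 counts), a ratio of 1.21 (1.15 to 1.28).

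Slc4a1 (ENSMUSG00000006574.15, chromosome 11, 102348824-102366203, minus strand) encodes band 3, the anion exchanger that is among the most abundant proteins of the red cell membrane. It was at the edge of detection, with 8 counts in RNA-Best against 1 in RNAlater, or 0.148 and 0.0223 CPM. The ratio of these counts was 6.66, with an interval from 0.894 to 296, so no difference was detectable at this depth. Slc4a1 was the member that fell below a mean of 1 CPM and stayed out of the counts over genes compared.

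**Figure D1:**
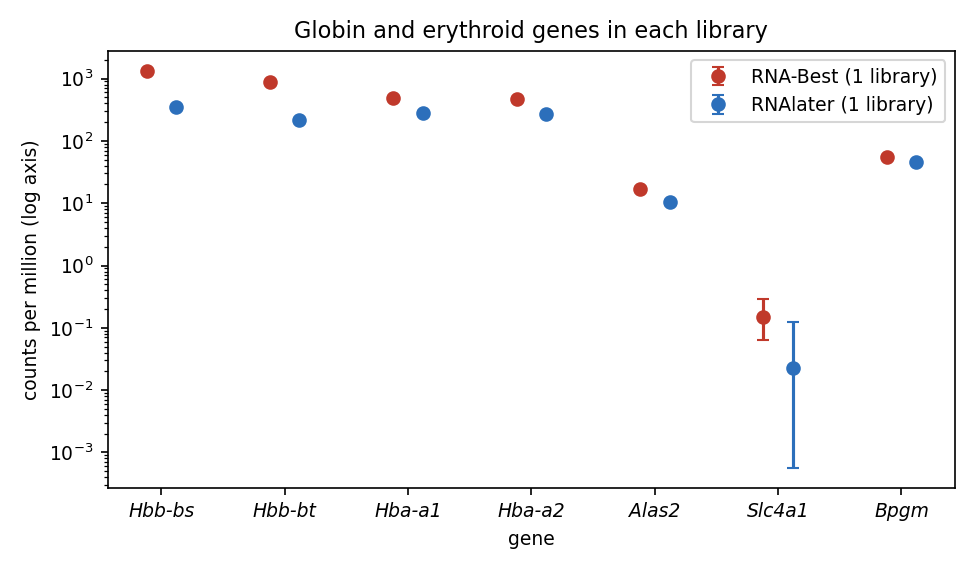
CPM of the 7 genes (log axis) in the RNA-Best library (red) and the RNAlater library (blue), with exact 95% Poisson intervals of the counts, which are smaller than the points except for Slc4a1. Both Hbb genes lie above both Hba genes in RNA-Best, whereas in RNAlater Hbb-bt (220.0 CPM) lies below Hba-a1 (280 CPM) and Hba-a2 (274 CPM).

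On the log2 ratio, 2 of the 7 members, Hbb-bs and Hbb-bt, passed a 2-fold limit in the direction of RNA-Best, against 0.273% of all genes compared. At a limit of 1.5-fold, 5 members were higher, the 4 globin genes and Alas2, against 3.22% of all genes. All 6 members compared had a log2 ratio above 0, against 33% of all genes. Since the members were picked with these ratios known, nothing is read from the counts. The order of the log2 ratios was Hbb-bt (2.02, 1.99 to 2.06), Hbb-bs (1.94, 1.92 to 1.97), Hba-a1 (0.79, 0.76 to 0.82), Hba-a2 (0.78, 0.75 to 0.82), Alas2 (0.67, 0.53 to 0.86) and Bpgm (0.27, 0.20 to 0.36). In this order the intervals of Hba-a1, Hba-a2 and Alas2 overlapped, whereas Hbb-bs and Hbb-bt, Hbb-bs and Hba-a1, and Alas2 and Bpgm were separated by more than counting error. Relative to the median of all genes compared, summed beta-globin was 2.15 higher and summed alpha-globin 0.96 higher on the log2 scale.

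Alpha and beta mRNA did not keep the same proportion in the libraries. Divided by the length of the longest annotated transcript, beta-globin had 3396 CPM per kb in RNA-Best and 864 in RNAlater, and alpha-globin had 1544 CPM per kb in RNA-Best and 894 in RNAlater. The beta level per kb was thus 2.20 times the alpha level in RNA-Best and 0.967 times in RNAlater. With the median length of the annotated transcripts, these values were 2.66 and 1.17, so in RNAlater the annotation decided which pair was higher. The change of the beta to alpha count ratio between the libraries uses neither a length nor a scaling. As counts, beta to alpha was 2.33 (2.31 to 2.36) in RNA-Best and 1.02 (1.01 to 1.04) in RNAlater, a log2 difference of 1.19 (1.16 to 1.22). This was a property of 2 libraries, and its spread between samples was not measured.

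Within each pair the copies kept closer proportions. The count ratio of Hba-a1 to Hba-a2 was 1.03 in RNA-Best and 1.02 in RNAlater, a log2 difference of 0.01 (-0.04 to 0.05), which includes 0. The count ratio of Hbb-bs to Hbb-bt was 1.49 in RNA-Best and 1.57 in RNAlater, a log2 difference of -0.08 (-0.12 to -0.04). Reads that match both copies enter these ratios.

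The ratio of Alas2 lay nearer to that of alpha-globin than to that of beta-globin. The alpha to Alas2 count ratio was 56.9 in RNA-Best and 53.3 in RNAlater, a log2 difference of 0.09 (-0.07 to 0.26). For beta to Alas2 the count ratio was 133 in RNA-Best and 54.6 in RNAlater, a log2 difference of 1.28 (1.12 to 1.45). Bpgm, which many tissues other than blood also express, had the smallest ratio of the 6 members compared. Relative to Bpgm, beta-globin was higher in RNA-Best by 1.70 (1.62 to 1.78), alpha-globin by 0.51 (0.43 to 0.60) and Alas2 by 0.42 (0.23 to 0.60) on the log2 scale. Alas1 encodes the form of the same haem enzyme that all cells use. The count ratio of Alas2 to Alas1 was 0.680 in RNA-Best and 0.339 in RNAlater, a log2 difference of 1.0 (0.80 to 1.20).

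**Figure D2:**
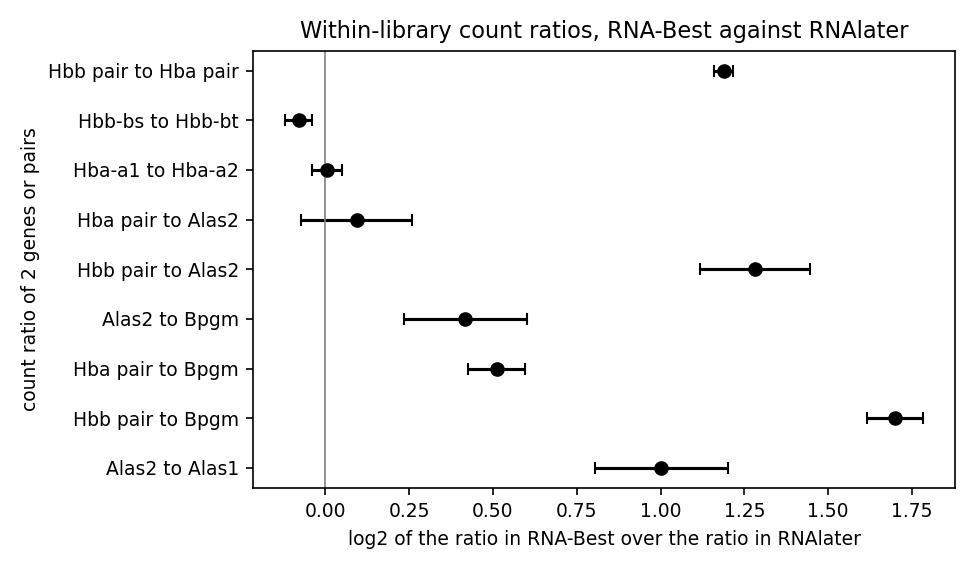
Log2 of the count ratio of 2 genes or pairs in RNA-Best over the same ratio in RNAlater, with 95% intervals for counting error (x axis), for 9 ratios (y axis). The 3 ratios with beta-globin (Hbb) against another gene lie highest, at 1.19, 1.28 and 1.70, while Hba-a1 to Hba-a2 and the alpha pair (Hba) to Alas2 have intervals that include 0.

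Transcript length moved with the ratio between the libraries across all genes. The median log2 ratio was 0.28 over the 2089 genes with a longest transcript of up to 1 kb, -0.09 over the 3108 genes of 2 to 3 kb and -0.40 over the 3463 genes of 4 to 6 kb. The 4 globin transcripts, of 554 to 703 bases, belong to the shortest class, where 1.77% of genes passed 2-fold in the direction of RNA-Best. Relative to the median of that class, Hbb-bs was 1.66 and Hbb-bt 1.74 higher on the log2 scale, and Hba-a1 was 0.51 and Hba-a2 0.50 higher. In that class 125 genes had a higher log2 ratio than Hba-a1, and none had a higher one than Hbb-bt. Alas2, with a transcript of 2037 bases, was 0.76 above the median of its class, in which 11 genes were higher. Bpgm, with a transcript of 2220 bases, was 0.36 above the same median, and 267 genes were higher. The alpha and beta transcripts are of like length, and their log2 ratios differed by 1.19. The part of length in the members' ratios was not tested.

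**Figure D3:**
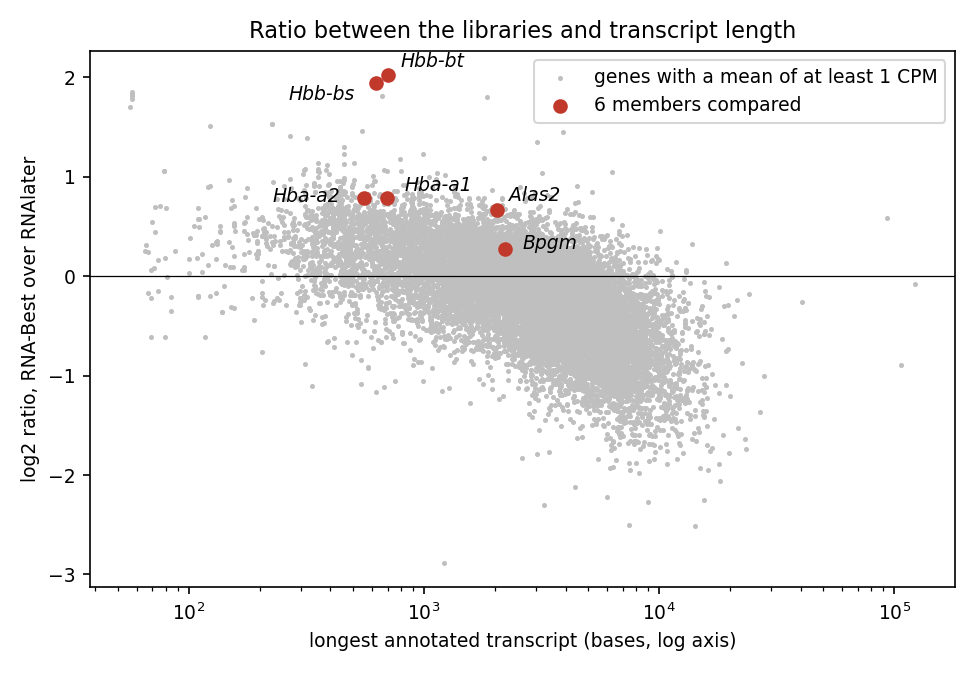
Log2 ratio of RNA-Best over RNAlater (y axis) against the length of the longest annotated transcript (x axis, bases, log axis) for all genes compared (grey) and the 6 members compared (red). The Hbb genes, at 1.94 and 2.02, stand above the other short transcripts, whereas the Hba genes, at 0.79 and 0.78, lie within the upper part of the grey cloud.

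Genes that mark immature red cells were near the limit of detection in both libraries. Epb42, a membrane skeleton protein of red cells, had 24 counts in RNA-Best against 2 in RNAlater, a ratio of 10.0 with an interval of 2.48 to 87.3. Klf1, the transcription factor that activates adult beta-globin, had 25 and 15 counts. Gata1, the master regulator of the erythroid line, had 5 counts in RNA-Best against 0 in RNAlater. The counting interval of the Gata1 ratio started at 0.763 and had no upper end, so no difference was detectable at this depth. Hemgn had 2 and 0 counts, Rhag 0.4 and 0, and Car1 0 and 1, in RNA-Best and RNAlater in that order. The counts of these 6 genes summed to 56.4 in RNA-Best and 18 in RNAlater, a ratio of 2.61 (1.5 to 4.68). Without Epb42 the sums were 32.4 and 16, a ratio of 1.69 (0.888 to 3.25) whose interval includes 1.

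Globins of the embryo and the minor adult globins were almost absent. Of 7 such genes, 4 had no count in either library. Hbb-bh1, an embryonic beta-type globin, had 7 counts in RNA-Best against 3.33 in RNAlater. The theta-type genes Hbq1a and Hbq1b had 4.5 and 3.5 counts in RNA-Best and 1 each in RNAlater. A count of 0 allows up to 3 counts, or 0.0556 CPM in RNA-Best against 0.0668 in RNAlater.

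The erythroid genes outside the set that reached 1 CPM had a median log2 ratio near that of all genes. Over 5 lists of haem synthesis, iron supply, membrane, transcription and enzyme genes, 55 of 70 genes reached a mean of 1 CPM. Of these, 17 were higher in RNA-Best (30.9%, against 33% of all genes) and 38 were lower. Their median log2 ratio was -0.20, close to the -0.18 of all genes, and 0 were at least 2-fold higher while 3 were at least 2-fold lower. Scaled by edgeR's TMM or by DESeq2 size factors, 27 of the 55 were higher (49.1%), against 48.7% and 49.7% of all genes. Most of these genes act in many cell types, and the more red cell restricted ones, such as Epb42, mostly lay under 1 CPM and are not in this median.

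Haem synthesis genes had 6 of 12 higher and 6 lower, against 33% of all genes higher, and a median log2 ratio of 0.07. Under each of the other 3 scalings 9 of 12 were higher, against 44.8% to 49.7% of all genes. The highest was Tmem14c, which helps import a haem precursor into mitochondria, at 0.54 (0.45 to 0.65). The lowest was Cpox, coproporphyrinogen oxidase, at -0.36 (-0.47 to -0.27). Slc25a39, a mitochondrial carrier and the most abundant by CPM, had 81.3 CPM in RNA-Best against 72.8 in RNAlater. Alas2 (0.67) thus lay above all 12 of them on the log2 ratio, and Alas1 had -0.30 (-0.42 to -0.20).

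The 10 iron supply genes had a median log2 ratio of -0.12, with 2 higher and 8 lower, against 33% of all genes higher. Under TMM and DESeq2 size factors 6 of the 10 were higher, and 5 were with the top 2 genes taken out of the total. Slc40a1, the iron exporter ferroportin, was the highest at 0.12 (-0.09 to 0.35), and Slc11a2, an iron importer, the lowest at -0.50 (-0.61 to -0.41). Fth1, the heavy chain of the iron store ferritin, had 764 CPM in RNA-Best against 782 in RNAlater. Its log2 ratio was -0.03 (-0.06 to -0.01), and both it and the median of this list rose above 0 under the other 3 scalings, the median to at most 0.06.

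Of 16 red cell membrane genes, 11 reached 1 CPM, of which 1 was higher and 10 were lower, against 33% of all genes higher. Their median log2 ratio was -0.42. The exception was Rhd, a blood group protein that red cells carry, at 0.55 (0.24 to 1.28) on 97 counts in RNA-Best against 48 in RNAlater. Under each of the other 3 scalings 2 of the 11 were higher, with medians from -0.29 to -0.23. Sptb, the beta chain of spectrin, was the lowest at -1.41 (-1.60 to -1.30), and has a transcript of 10394 bases. Slc2a1, the glucose transporter GLUT1 and the most abundant by CPM, had -0.40 (-0.43 to -0.37). Of 11 erythroid transcription genes, 6 reached 1 CPM and all 6 were lower, against 33% of all genes higher. They ran from Lmo2 at -0.23 (-0.34 to -0.12) to Cbfa2t3 at -1.25 (-1.77 to -1.11), with a median of -0.61. None of the 6 was higher under TMM or DESeq2 size factors, and 1 of 7 was with the top 2 genes taken out of the total. Ldb1, the bridging partner of Lmo2 and the most abundant by CPM, had -0.24 (-0.29 to -0.19). The 16 red cell enzyme and late erythroid genes that reached 1 CPM were 8 higher and 8 lower, against 33% of all genes higher. Their median was 0.08. Under TMM and DESeq2 size factors 10 of the 16 were higher, and 10 of 17 were with the top 2 genes taken out. Prdx2, an antioxidant enzyme abundant in red cells, was both the highest, at 0.41 (0.37 to 0.46), and the most abundant by CPM. Ube2o, a ubiquitin ligase that clears proteins in reticulocytes, was the lowest at -0.70 (-0.81 to -0.60).

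**Figure D4:**
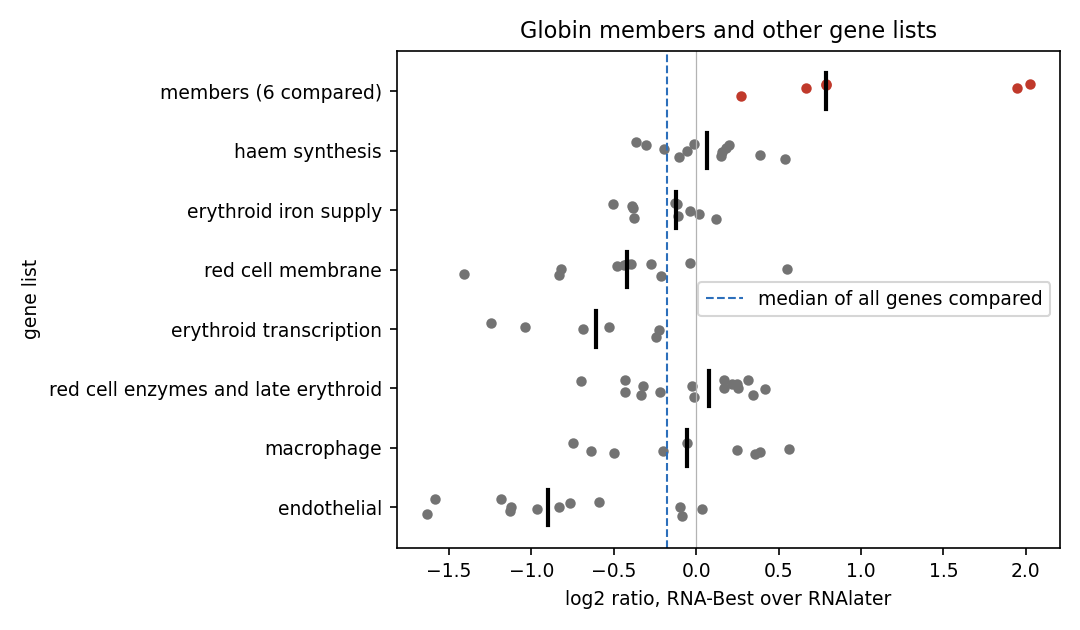
Log2 ratio of RNA-Best over RNAlater (x axis) for the 6 members compared (red) and for the genes compared in 7 other lists (grey), with the median of each list (black bar) and of all genes compared (dashed line, -0.18). The median of the members (0.79) lies to the right of every other list, and the endothelial list lies furthest left with a median of -0.90. The medians of the haem, iron and enzyme lists lie right of the dashed line. Those of the membrane and transcription lists lie left of it.

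The summed markers of platelets lay near a ratio of 1, and those of lymphocytes were lower in RNA-Best. The largest part of the platelet sum came from Itga2b, and that of the lymphocyte sum from Ptprc. The neutrophil sum was lower through Lcn2, and the other neutrophil markers had no common direction. The 11 platelet markers summed to 13.0 CPM in RNA-Best against 12.8 in RNAlater. Of these, Pf4, a platelet chemokine, had 52 and 27 counts, a ratio of 1.60 (0.989 to 2.66) whose interval includes that of alpha-globin, Ppbp 18 and 14, and Itga2b, the most abundant by CPM, 9.14 and 8.46 CPM, while Gp1bb had the lowest log2 ratio of those compared, -0.45 (-1.14 to -0.10). Treml1 had no count in RNA-Best against 7 in RNAlater, with a ratio interval that ended at 0.578. The 12 neutrophil markers summed to 54.8 CPM in RNA-Best against 77.9 in RNAlater, mostly from Lcn2 (44.2 and 67.7 CPM), which other cells also make. Of the 4 neutrophil markers compared, 2 were higher and 2 lower, against 33% of all genes higher. S100a8 had 66 and 44 counts, S100a9 129 and 144, and Mmp8, at 0.33 (0.11 to 0.60), had the highest log2 ratio. Camp, Mpo and Elane were at 0 in both libraries, and Ly6g had 4 counts in RNA-Best against 0 in RNAlater. The 12 lymphocyte markers summed to 26.8 CPM in RNA-Best against 34.6 in RNAlater, including Cd79a at 73 and 56 counts and Cd3e at 5 and 16. Cd3d, of the same T cell receptor complex as Cd3e, went the other way, with 13 and 2 counts and a ratio of 5.42 (1.23 to 49.4). Of the 6 lymphocyte markers compared, 2 were higher and 4 lower, against 33% of all genes higher. Cd79b had the highest log2 ratio of them, 0.29 (0.07 to 0.56), and Cd4 the lowest, -1.13 (-1.66 to -0.98). Ptprc, the most abundant by CPM, had 13.1 and 17.9 CPM.

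The 12 endothelial markers summed to 464 CPM in RNA-Best against 888 in RNAlater, a ratio of 0.523 (0.515 to 0.532), with 11 of 12 lower, as were 11058 of the 16504 genes compared. They ranged from Egfl7 at 0.04 (-0.06 to 0.13) to Kdr, the receptor for vascular endothelial growth factor, at -1.63 (-1.72 to -1.57), and Plvap, the most abundant by CPM, had 144 CPM in RNA-Best against 246 in RNAlater. The 10 macrophage markers summed to 243 CPM in RNA-Best against 217 in RNAlater, from C1qa at 0.56 (0.48 to 0.65), also the most abundant by CPM, to Csf1r at -0.75 (-0.89 to -0.64). Of the endothelial markers, Kdr (5924 bases) and Flt1 (6895 bases, -1.58) were the lowest, while Egfl7 (1865 bases), Esam (1865 bases, -0.10) and Cldn5 (1416 bases, -0.08) lay near 0. Plvap (1987 bases) had -0.77 and Emcn (3521 bases) -0.59. Pecam1 (3441 bases) had -1.13, Cdh5 (3995 bases) -1.18, Tie1 (4234 bases) -1.13 and Tek (4654 bases) -0.97. Vwf, the longest at 8834 bases, had -0.83. The median of all genes of 4 to 6 kb was -0.40, and the part of length in the endothelial values was not tested. The share of blood in each pool of cells was not tested.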

How the data were processed

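Poly(A) RNA of 2 samples was measured, 1 library in RNA-Best and 1 in RNAlater, grouped by the stabilizer in the labels. The authors deposited 1 table of estimated counts per gene, not normalized and partly fractional. The submitters' processing notes name STAR 2.5.1b, featureCounts 1.5.0-p1 and mm10. The option that split reads, and the strand setting, were not given in the sources used here. Split reads make near-identical copies uncertain, so the Hbb and Hba copies were also summed.

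Identifiers were matched to GENCODE M21 (GRCm38) without version suffix (46488 of 47069, 98.8%), and promoters to RefSeq (GRCm38.p6). Counts were scaled by library total to CPM. Log2 ratios had 0.5 CPM added, which understates the ratios of weak genes, and a gene was compared where its mean CPM was 1 or more. With 1 library per group no model could be fitted and no p-value is given. Intervals are exact conditional binomial at 95%, on rounded counts without pseudocount, and Poisson for single counts. The steps were tested on simulated data. Alternatives were edgeR 4.0.16 TMM and DESeq2 1.42.0 scaling (R 4.3.3), totals without the 2 most abundant genes, other pseudocounts, filters and fold limits. Scripts ran in Python 3.11.15 with pandas 2.3.3, scipy 1.17.1 and numpy 2.4.6.

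The members, lists and comparisons were chosen with earlier results of these data known. Named from each list were the genes with the highest and lowest log2 ratio and the most abundant gene, with fixed red cell and blood cell markers, every minor globin with a count, and the 3 genes of at least 10 CPM nearest in ratio to beta-globin. Genes named beyond this (Alas1, Cd3d, Flt1, Esam, Cldn5, Vwf, Pecam1, Cdh5, Emcn, Tie1, Tek, Camp, Mpo, Elane, Ly6g, Treml1) were added after their values were seen. Ahsp was not analysed here, and 3 other listed genes are not reported here.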

Additional observations from a re-analysis of the deposited data

How the results depend on the processing

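No paired analysis was possible because there was a single library per stabilizer and no replicate number, and for the same reason no library could be left out. Scaling moved the globin log2 ratios upward, by construction, as it moved the median of all genes by 0.16 (TMM), 0.17 (DESeq2 size factors) and 0.12 (total without the 2 most abundant genes). Summed beta-globin was then 2.15, 2.16 and 2.10, and summed alpha-globin 0.96, 0.97 and 0.92. Relative to all genes they stayed at 2.16 and at 0.97 to 0.98 under these 3. The median of the other erythroid genes moved from -0.20 to -0.0194 under DESeq2 size factors, where all genes had a median of -0.003. Of the 7 members, 5 passed a limit of 1.5-fold and 1 passed 4-fold, and with copies summed first 1 of 5 units passed 2-fold. The difference between beta and alpha moved by less than its counting interval under the other scalings, pseudocounts and filters. Scaling nearly cancels in this difference and a filter does not enter it, so only the pseudocounts could have moved it. The log2 ratios of the single members gave 56 alternative values, of which 41 moved by less than their counting interval and 15 by more, and all 56 were above 0. All 15 came from the other scalings, which raised every ratio by construction. A filter cannot change the ratio of a single gene. These counts are therefore no test of the direction. Depth limited Slc4a1, the embryonic globins and the 6 red cell defining genes, whose counts were too few for a ratio to be read gene by gene, Epb42 aside. The sum over those 6 genes without Epb42 was chosen after seeing the data.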

Other observations

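Globins of other tissues had few counts and no common direction. Ngb, the neuronal globin, had 3.06 CPM in RNA-Best against 2.09 in RNAlater, for a log2 ratio of 0.46 (0.17 to 0.93), an interval that includes the 0.79 of alpha-globin. Cygb, a globin of connective tissue cells, had 5.92 CPM against 9.60, with a log2 ratio of -0.65 (-0.91 to -0.49) and the most counts of the 3. Mb, the muscle globin myoglobin, had 15 counts in RNA-Best against 38 in RNAlater.

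Of 8 genes that clear free haemoglobin and haem, 6 reached a mean of 1 CPM. Of these, 2 were higher and 4 lower, against 33% of all genes higher, and 3 were higher under the other 3 scalings. Their median log2 ratio of -0.19 stayed below 0 under the other 3 scalings. Hmox1, the inducible enzyme that breaks down haem, had 115 CPM in RNA-Best against 159 in RNAlater, for a log2 ratio of -0.47 (-0.52 to -0.42), and was the most abundant by mean CPM. Blvra, which reduces the biliverdin that haem breakdown releases, was the highest at 0.21 (-0.002 to 0.45). Lrp1, a receptor for many ligands including the haem carrier hemopexin, was the lowest at -1.93 (-2.01 to -1.87), with a transcript of 14888 bases.

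Over the 10497 genes whose mean CPM was 10 or more, those nearest in log2 ratio to summed beta-globin, members aside, were Gm24245 (1.86), Gm24270 (1.83) and Gm10800 (1.82). The likeness is over 2 libraries only. The first 2 are annotated as miRNA genes of 57 bases, shorter than most transcripts that a poly(A) library holds, and the counts of all 3 held fractions of reads.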
